A study of Homo sapiens with 14 samples.

Results

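In all, 10 mature microRNAs (miRNAs) were measured in extracellular vesicles, small membrane-bound bodies shed into the medium: the 6 main products of the miR-17-92 cluster, the 3 of the related miR-106b-25 cluster, and miR-92b-3p, a close sequence relative of miR-92a-3p with a gene of its own. They were taken by name from the raw count table, which lists 2632 mature miRNAs, and all 10 have a row there. Medium was conditioned by pro-epicardial cells, the precursors of the covering of the heart, made from the human embryonic stem cell line hES-2 (an established line) and cryopreserved before plating. Every group grew in supplemented StemPro medium and came from this 1 line, which limits all groups as a model of the epicardium. The NT group (3 libraries) received no SB-431542 and no other additive, and is labelled untreated pro-epicardial. The SB group (4 libraries) was kept in 6 µM SB-431542, a blocker of the TGF-β receptor, for 8 days and is labelled mature epicardial. The TGFb group (4 libraries) had 5 ng/ml TGF-β1 for 4 days and none for the next 4 days. The FGF group (3 libraries) had 10 ng/ml basic FGF for 8 days. TGF-β1 and basic FGF were added from the day after plating, and SB-431542 from plating. From day 4 the medium had been passed through a 100 kDa filter, and it was collected on days 6 and 8, after 48 h each. Vesicles were precipitated with polyethylene glycol. The labels do not say whether replicates were separate cultures, so p-values measure only the spread between these samples.

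The miR-17-92 cluster is a single primary transcript that is cut into several hairpins, each of which gives a mature miRNA. It is known as a target of MYC that favours cell growth and survival, and it is needed for normal heart and lung development. miRNAs find their targets mainly through the seed, bases 2 to 8. The miR-17 seed group restrains cell-cycle inhibitors such as CDKN1A and the TGF-β receptor TGFBR2. miR-92a restrains blood vessel growth in part through the integrin gene ITGA5.

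The sequences below show which members can be told apart and which share a seed (in capitals). They are RefSeq mature sequences of build GRCh38.p14, written 5′ to 3′, and all 10 members matched an entry. The miR-17 seed is carried by 4 members:
miR-17-5p: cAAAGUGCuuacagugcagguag
miR-20a-5p: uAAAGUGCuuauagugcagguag
miR-93-5p: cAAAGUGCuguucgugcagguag
miR-106b-5p: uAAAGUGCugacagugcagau
miR-18a-5p has a seed of its own among the members, and the 2 miR-19 members share theirs:
miR-18a-5p: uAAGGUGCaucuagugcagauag
miR-19a-3p: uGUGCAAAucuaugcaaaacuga
miR-19b-3p: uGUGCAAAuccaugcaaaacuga
The remaining 3 carry the miR-92 seed:
miR-92a-3p: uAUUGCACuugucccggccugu
miR-92b-3p: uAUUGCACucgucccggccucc
miR-25-3p: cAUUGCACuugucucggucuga

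Counting from 1 at the 5′ end, miR-92a-3p and miR-92b-3p differ at 3 positions (U10C, G21C and U22C), and miR-92a-3p and miR-25-3p at 4 (U1C, C14U, C18U and U22A). The pair miR-19a-3p and miR-19b-3p differs by U11C alone. How the authors assigned reads that fit near-identical miRNAs is not given in the sources used here, so the split within such pairs is uncertain.

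The 6 hairpins of miR-17-92 lie in 787 bases of chromosome 13 (91350605 to 91351391, plus strand, GRCh38), where they overlap an exon of the non-coding host gene MIR17HG in GENCODE 29. The 3 miRNAs of miR-106b-25 lie in 515 bases of chromosome 7, from 100093560 to 100094074 on the minus strand. They sit inside an intron of MCM7, a helicase subunit needed for DNA replication. MIR92B occupies 155195177 to 155195272 of chromosome 1 (plus strand) and overlaps an exon of AC234582.1, annotated as an antisense gene. miR-92a-3p and miR-19b-3p also have copies in the paralogous miR-106a-363 cluster on the X chromosome, so their counts are sums over 2 genes each. The mature miR-92a-3p is the same in both of its hairpins and is shown in capitals in each:
MIR92A1 (chr13:91351314-91351391, plus strand): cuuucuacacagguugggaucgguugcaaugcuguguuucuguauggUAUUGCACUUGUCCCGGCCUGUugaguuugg
MIR92A2 (chrX:134169538-134169612, minus strand): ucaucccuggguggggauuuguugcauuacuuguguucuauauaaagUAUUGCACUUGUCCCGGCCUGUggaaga

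The libraries were shallow, with totals from 115 to 14862 counts, and 4 of the 14 held under 500. Of those 4, 3 carry replicate number 2, and NT replicates 1 and 3 are the deepest. Intervals on shares are 95% Wilson intervals, which cover counting error only. The counts are not known to be of independent molecules, and if they are not, these intervals are too narrow. Of markers of other cells, the red-cell and serum list had 4 of 7 detected, with miR-451a, miR-144-3p and miR-150-5p at 0 in every library. Undifferentiated-cell markers had 2 of 8 detected and summed to at most 0.0990% of any library, and cardiac muscle markers had 2 of 6. The red-cell and serum list summed to 1.74% to 4.72% in FGF, 1.52% to 4.47% in SB, 0.348% to 1.55% in TGFb and 0.161% to 2.18% in NT. Most of its counts were miR-16-5p, but in SB replicate 2 miR-122-5p took 3.91% against 0.559% of miR-16-5p. Mesenchyme and mural cell markers differed most, with 6 of 6 detected over all libraries but 3 in NT, 4 in SB, 5 in TGFb and 5 in FGF. They summed to 8.41% to 13.04% in FGF, above 0.0875% to 3.56% in NT, 0.836% to 4.35% in SB and 0.564% to 5.19% in TGFb. Over the 14 libraries, miR-21-5p of this list averaged 2.56% and miR-143-3p 0.984%. Endothelial markers (2 of 2 detected) summed to 0 to 1.04% in FGF and 0.0269% to 0.0990% in NT. In SB they ran from 0 to 3.91%, and in TGFb from 0.0535% to 0.866%. Epithelial markers (6 of 6) summed to 0.123% to 1.84% in FGF and 0.0404% to 1.68% in NT. In SB these ran from 0 to 1.71%, and in TGFb from 0.0936% to 1.16%. The part of these lists in the results was not tested. No miRNA list that defines epicardial cells was used.

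Within miR-17-92, miR-92a-3p accounted for nearly all counts. Over the 14 libraries it had 1774 counts, and its 5 mates together had 45: 30 for miR-20a-5p, 7 for miR-17-5p, 3 each for miR-19a-3p and miR-19b-3p, and 2 for miR-18a-5p. miR-92a-3p had the highest count of the 6 in 14 of 14 libraries and was the only one present in all of them. Its mean share of the cluster was 95.3% ± 5.12 (SD, n = 14), from 85.7% to 100%.

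By library, the NT vesicles had 824 of 829 cluster counts from miR-92a-3p in replicate 1 (99.4%), 354 of 358 in replicate 3 (98.9%) and 30 of 35 in replicate 4 (85.7%, interval 70.6% to 93.7%). In SB they were 10 of 11, 6 of 6, 147 of 156 (94.2%) and 26 of 27 in replicates 1 to 4. In TGFb they were 23 of 23, 10 of 10, 162 of 166 (97.6%) and 61 of 66 (92.4%). NT replicate 1 and NT replicate 3 stood at the high end among libraries with over 100 cluster counts, and the 4 libraries at 100% held only 2 to 23 cluster counts each. In FGF replicates 2 to 4 they were 2 of 2, 95 of 102 (93.1%) and 24 of 28 (85.7%).

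The NT mean of this share was 94.7% ± 7.76 (n = 3) and the SB mean 95.4% ± 3.81 (n = 4). TGFb averaged 97.5% ± 3.57 (n = 4), and FGF 93.0% ± 7.14 (n = 3). All 4 ranges overlapped, so the dominance of miR-92a-3p was seen in every condition and the groups did not separate on it. No test was made of this share, because it is a value over the chosen members. The mates' summed count ran from 0 to 9 per library while totals differed far more: NT replicate 1, with 14862 counts in all, and NT replicate 4, with 1010, each held 5.

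**Figure D1:**
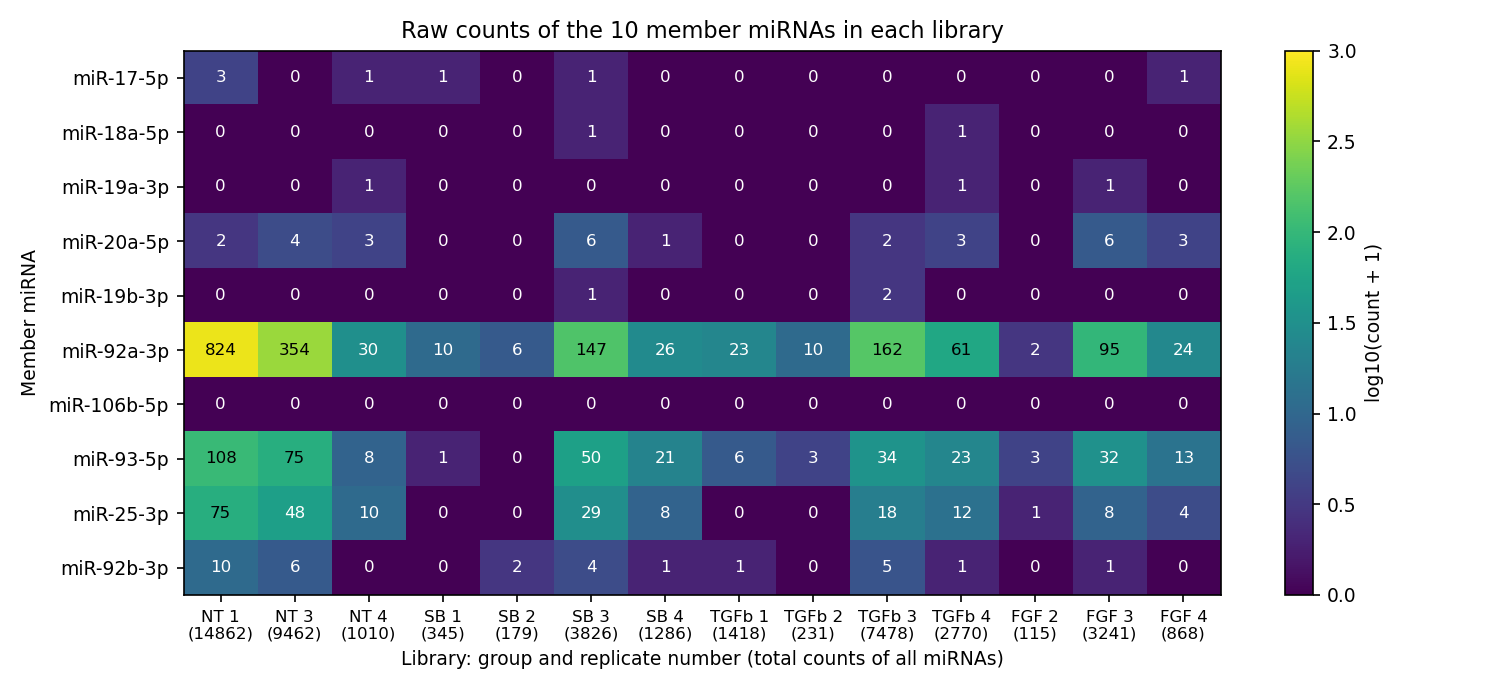
Raw counts of the 10 miRNAs (rows) in the 14 libraries (columns, with the library total in brackets), coloured by log10(count + 1). The miR-92a-3p row runs from 2 to 824 counts and is filled in every library, while miR-106b-5p is at 0 throughout and the 5 cluster mates of miR-92a-3p never exceed 6.

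**Figure D2:**
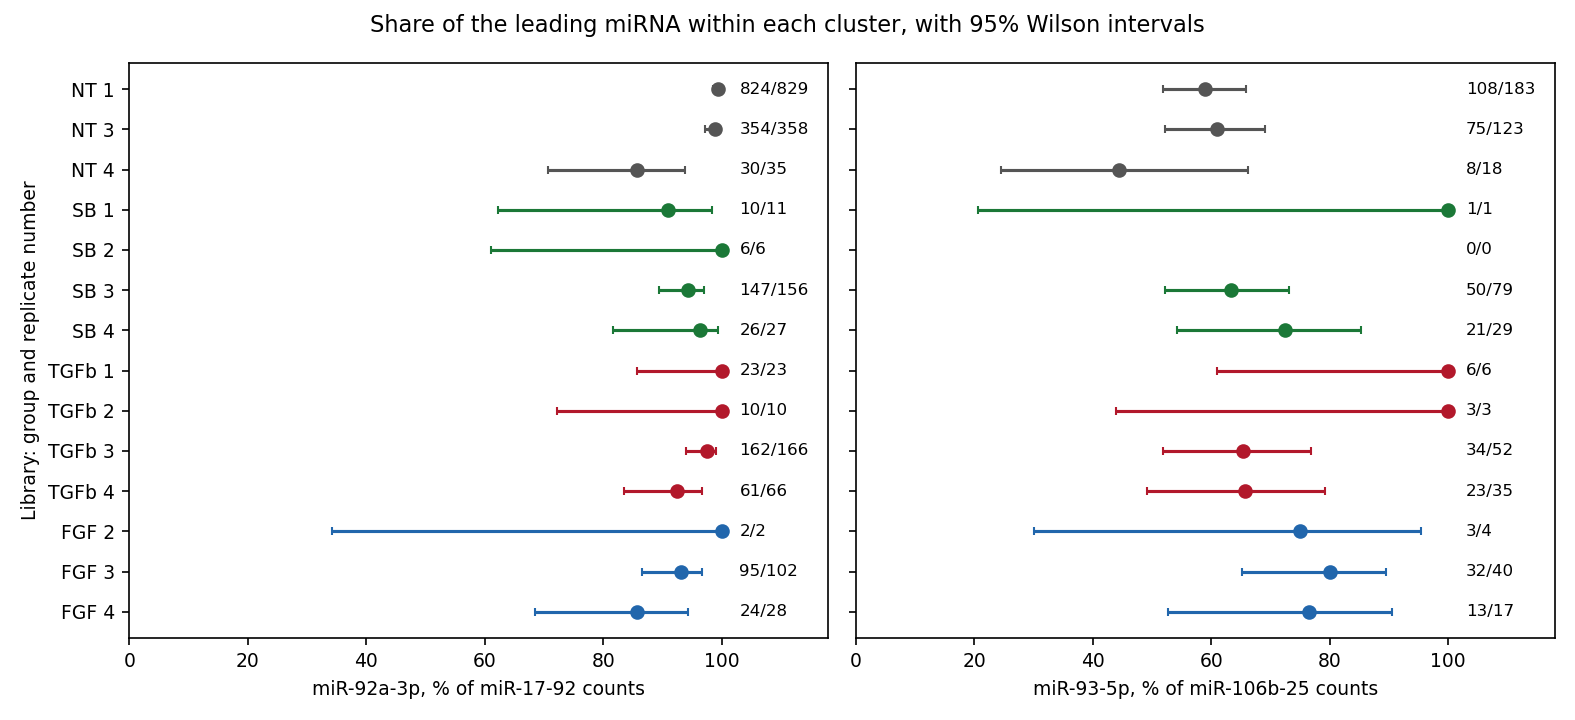
Share of miR-92a-3p among miR-17-92 counts (left) and of miR-93-5p among miR-106b-25 counts (right) in each library, as points with 95% Wilson intervals and the counts printed beside them. The left panel runs from 85.7% to 100%, and in the right panel the 3 NT libraries, at 44.4% to 61.0%, are the lowest.

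The mates were at the edge of detection. miR-20a-5p, which shares the seed of miR-17-5p, had a count in 9 libraries and at most 6 counts, in SB replicate 3 (0.157% of the library) and FGF replicate 3 (0.185%). Its highest share, 0.346% in FGF replicate 4, rests on 3 of 868 counts (interval 0.118% to 1.01%). miR-17-5p had 3 counts in NT replicate 1 and 1 count in each of 4 other libraries. miR-19a-3p was seen in 3 libraries with 1 count each, and miR-19b-3p had 2 counts in TGFb replicate 3 and 1 in SB replicate 3. miR-18a-5p had 1 count in SB replicate 3 and 1 in TGFb replicate 4. None of these 5 passed the expression filter, and no difference between groups was detectable for them at this depth.

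As a sequence feature, base composition also set miR-92a-3p apart from its mates. Its GC content is 54.5%, against 47.8% for miR-17-5p, 43.5% for miR-18a-5p, 39.1% each for miR-19b-3p and miR-20a-5p, and 34.8% for miR-19a-3p. The members with over 100 counts besides it, miR-93-5p and miR-25-3p, have 52.2% and 50.0%. miR-92b-3p, which has a gene of its own outside both clusters, has the highest GC content of the 10 (63.6%) and 31 counts. For scale, the median over the 406 of 447 detected miRNAs with a RefSeq sequence was 53.6%. The part of base composition in the counts was not tested.

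Within miR-106b-25, the counts were split between miR-93-5p, with 377, and miR-25-3p, with 213. miR-106b-5p had 0 counts in 14 libraries. Over the 47091 counts of the series, a count of 0 allows a share of up to 0.00637%. miR-93-5p exceeded miR-25-3p in 12 libraries and fell below it in NT replicate 4 (8 against 10), and SB replicate 2 held neither.

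The balance of the pair was lowest in NT, a pattern picked out after the values were seen. miR-93-5p made up 59.0% of cluster counts in NT replicate 1 (108 of 183), 61.0% in replicate 3 (75 of 123) and 44.4% in replicate 4 (8 of 18). The shares were 63.3% (50 of 79) and 72.4% (21 of 29) in SB replicates 3 and 4, and 65.4% (34 of 52) and 65.7% (23 of 35) in TGFb replicates 3 and 4. FGF had 75.0%, 80% and 76.5% in replicates 2 to 4, of 4, 40 and 17 counts. All 10 other libraries with cluster counts lay above the NT libraries, but 3 of these 10, with 1 to 6 cluster counts, had no miR-25-3p at all. The counting interval of each of the 10 overlaps that of NT replicate 3, which runs from 52.1% to 69.1%, and SB replicate 3, for example, runs from 52.3% to 73.1%. No test was made of it.

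By seed, the miR-92 group (miR-92a-3p, miR-25-3p and miR-92b-3p) held 2018 of the 2440 counts of the 10 members, the miR-17 group 414, the miR-19 group 6 and the miR-18 seed 2. The miR-92 group took 3.53% ± 1.17 of a library on average (n = 14), and the miR-17 group 1.10% ± 0.686. Within the miR-92 group, miR-92a-3p accounted for 85.2% ± 10.1 of counts (n = 14). Within the miR-17 group, miR-93-5p gave 377 of 414. Both seeds were represented mainly by 1 miRNA each.

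All 10 miRNAs together took 4.65% ± 1.28 of a library's counts (n = 14). In order of mean share, they were miR-92a-3p (3.01% ± 1.09, the fifth of all miRNAs), miR-93-5p (0.974% ± 0.664, rank 20), miR-25-3p (0.402% ± 0.335, rank 48), miR-92b-3p (0.117% ± 0.290), miR-20a-5p (0.0895% ± 0.116), miR-17-5p (0.0393% ± 0.0816), miR-19a-3p (0.0119% ± 0.0279), miR-18a-5p (0.00445% ± 0.0115), miR-19b-3p (0.00378% ± 0.00960) and miR-106b-5p (0). The gap between miR-92a-3p and miR-93-5p was larger than the spread of either. From miR-93-5p down, each neighbouring pair differed by less than the larger of its 2 SDs. miR-92a-3p had the highest count of the 10 in 13 of 14 libraries, the exception being FGF replicate 2 with 2 counts against 3 of miR-93-5p.

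The level of miR-92a-3p was then compared among conditions, to ask whether the vesicle source changed it. As a share of all counts it was 5.54%, 3.74% and 2.97% in NT replicates 1, 3 and 4. In SB replicates 1 to 4 it was 2.90%, 3.35%, 3.84% and 2.02%. In TGFb replicates 1 to 4 it was 1.62%, 4.33%, 2.17% and 2.20%. NT replicate 1 was the highest of all 14, and TGFb replicate 2, a shallow library of 231 counts, stood above its group (interval 2.37% to 7.78%). In FGF replicates 2 to 4 it was 1.74%, 2.93% and 2.76%. SB, TGFb and NT overlapped. NT averaged 4.09% ± 1.32 (n = 3) and SB 3.03% ± 0.774 (n = 4), while TGFb averaged 2.58% ± 1.20 (n = 4) and FGF 2.48% ± 0.646 (n = 3).

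miR-92a-3p was lower on average in each of the 3 conditions than in NT, and none of these differences passed the test. Groups were compared with edgeR's quasi-likelihood test on 47 miRNAs that passed a filter on low counts, with p-values adjusted by Benjamini-Hochberg over all 47 and a threshold of 0.05. Of the 10 members, 3 passed the filter: miR-92a-3p, miR-93-5p and miR-25-3p. Against NT, the log2 fold change of miR-92a-3p was −0.71 in SB (SE 0.45, 95% interval −1.64 to 0.22, edgeR adjusted p = 0.441). It was −0.78 in TGFb (SE 0.45, interval −1.70 to 0.14, edgeR adjusted p = 0.935) and −1.12 in FGF (SE 0.50, interval −2.14 to −0.10, edgeR adjusted p = 0.261). The FGF difference had an unadjusted edgeR p of 0.0327, and the FGF and NT shares did not overlap. That gap was narrow: 2.93% in FGF replicate 3 against 2.97% in NT replicate 4, which rests on 30 of 1010 counts. Of all 47 miRNAs, 17% did not overlap between FGF and NT. The mesenchyme and mural markers also separated FGF from NT, and their part in the miR-92a-3p difference was not tested. The 3 comparisons share the NT libraries.

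**Figure D3:**
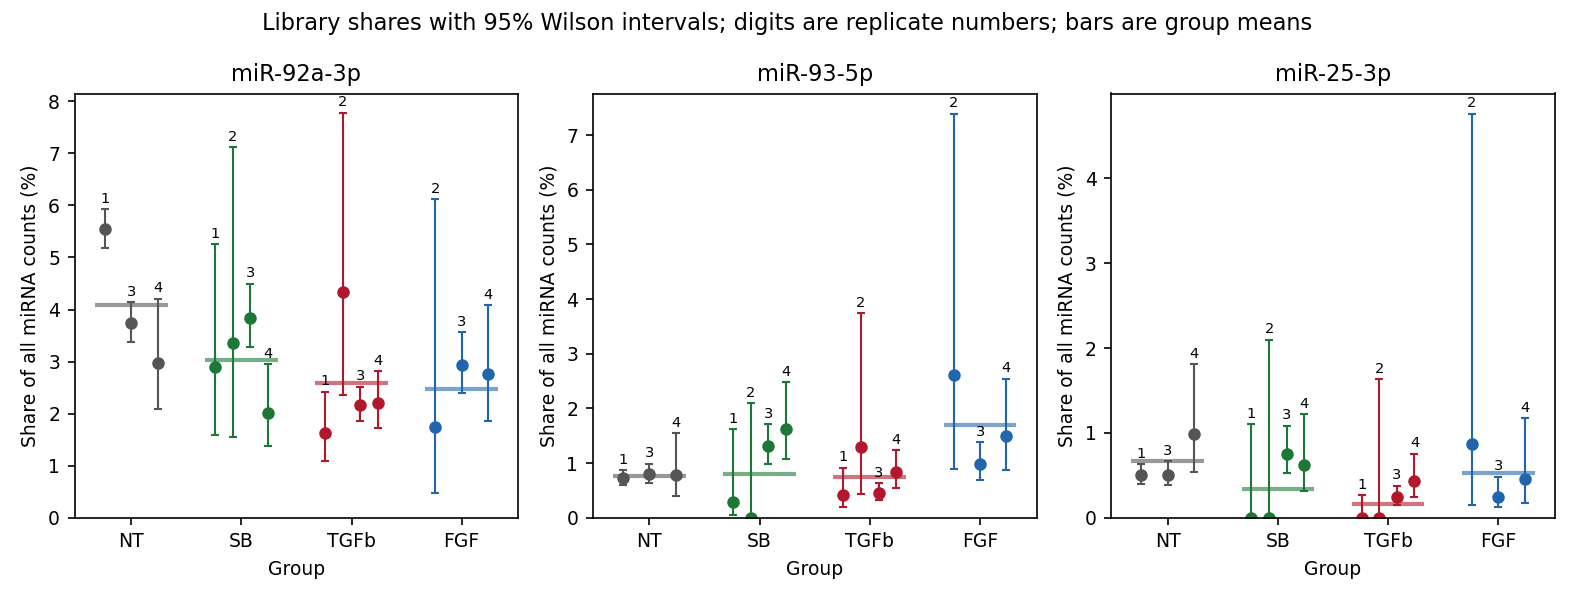
Share of all miRNA counts taken by miR-92a-3p, miR-93-5p and miR-25-3p (y axes, in percent) in each library of the 4 groups, with 95% Wilson intervals, replicate numbers and group means as horizontal bars. For miR-92a-3p, the 3 FGF libraries (1.74% to 2.93%) lie below the 3 NT libraries (2.97% to 5.54%), with wide counting intervals.

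miR-93-5p, which lies beside miR-25 in MCM7, had a narrow range in NT: 0.727%, 0.793% and 0.792% in replicates 1, 3 and 4. In FGF it was 2.61%, 0.987% and 1.5% in replicates 2 to 4, all above NT, and the highest of these rests on 3 of 115 counts. SB ran from 0 to 1.63% and TGFb from 0.423% to 1.30%, both across the NT range. The log2 fold change against NT was 0.15 in SB (SE 0.74, interval −1.36 to 1.67, edgeR adjusted p = 0.930), −0.15 in TGFb (SE 0.75, interval −1.68 to 1.38, edgeR adjusted p = 0.955) and 0.51 in FGF (SE 0.81, interval −1.16 to 2.18, edgeR adjusted p = 0.805). In libraries of at least 500 counts, the FGF value turned to −0.21. For FGF, 2 of the 3 tested members thus had shares that did not overlap NT, 1 lower and 1 higher, where 17% of all 47 miRNAs did not overlap.

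miR-25-3p, of the miR-92 seed group, was 0.505%, 0.507% and 0.990% in NT replicates 1, 3 and 4. In TGFb it was 0 in replicates 1 and 2, 0.241% in replicate 3 and 0.433% in replicate 4. All 4 TGFb libraries lay below NT, as in 1 of the 3 tested members, where 8.51% of the 47 did not overlap. A count of 0 allows up to 0.212% in TGFb replicate 1 but up to 1.30% in replicate 2, which is above the NT values. The log2 fold change was −1.41 (SE 1.05, interval −3.57 to 0.75, edgeR adjusted p = 0.935). SB had 0, 0, 0.758% and 0.622% in replicates 1 to 4 (−0.60 against NT, SE 1.05, edgeR adjusted p = 0.870). FGF had 0.870%, 0.247% and 0.461% in replicates 2 to 4 (−1.03, SE 1.23, edgeR adjusted p = 0.755), and both overlapped NT.

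Counted over all comparisons with edgeR, 0 of the 3 tested members passed in SB against NT, where 2.13% of the 47 did, in TGFb against NT (0%) and in FGF against NT (2.13%). These background counts depend on NT replicate 4: without it, 9 of 53 miRNAs passed in SB against NT and 8 of 53 in FGF against NT, none of them a member. Between SB, TGFb and FGF, 0 passed in TGFb against SB (0%), FGF against SB (0%) and TGFb against FGF (0%), and 0 passed over the 4 groups together (0%). At an unadjusted edgeR p under 0.05 the count was 1 in FGF against NT, miR-92a-3p, where 8 of the 47 miRNAs fell under it. It was 0 in the other pairwise comparisons. There, 6 of the 47 fell under it with SB and NT compared, and 2 with TGFb and NT. For the pairs that leave out NT, the numbers were 4 (TGFb, SB), 3 (FGF, SB) and 7 (TGFb, FGF). DESeq2 also called 0 members in each pair. Its calls among the 47, by adjusted p, were 3 (SB, NT), 0 (TGFb, NT) and 2 (FGF, NT). The remaining pairs had 0 (TGFb, SB), 1 (FGF, SB) and 1 (TGFb, FGF). The members' median log2 fold change against NT was −0.60 in SB, −0.78 in TGFb and −1.03 in FGF, beside −0.04, 0.09 and −0.0011 over all 47 miRNAs. In the other comparisons 0 of the 3 tested members had groups that did not overlap, beside 8.51% of the 47 for SB and NT and 8.51% for TGFb and SB. The share of all 47 was 10.6% when FGF was set against SB, and 14.9% when TGFb was set against FGF. Between the 3 conditions, the log2 fold changes of miR-92a-3p were −0.07 (TGFb against SB, interval −0.96 to 0.82), −0.41 (FGF against SB, interval −1.39 to 0.57) and 0.34 (TGFb against FGF, interval −0.63 to 1.31). The intervals leave room for changes of more than 1 log2 unit in most comparisons, so the groups are not shown to be alike.

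**Figure D4:**
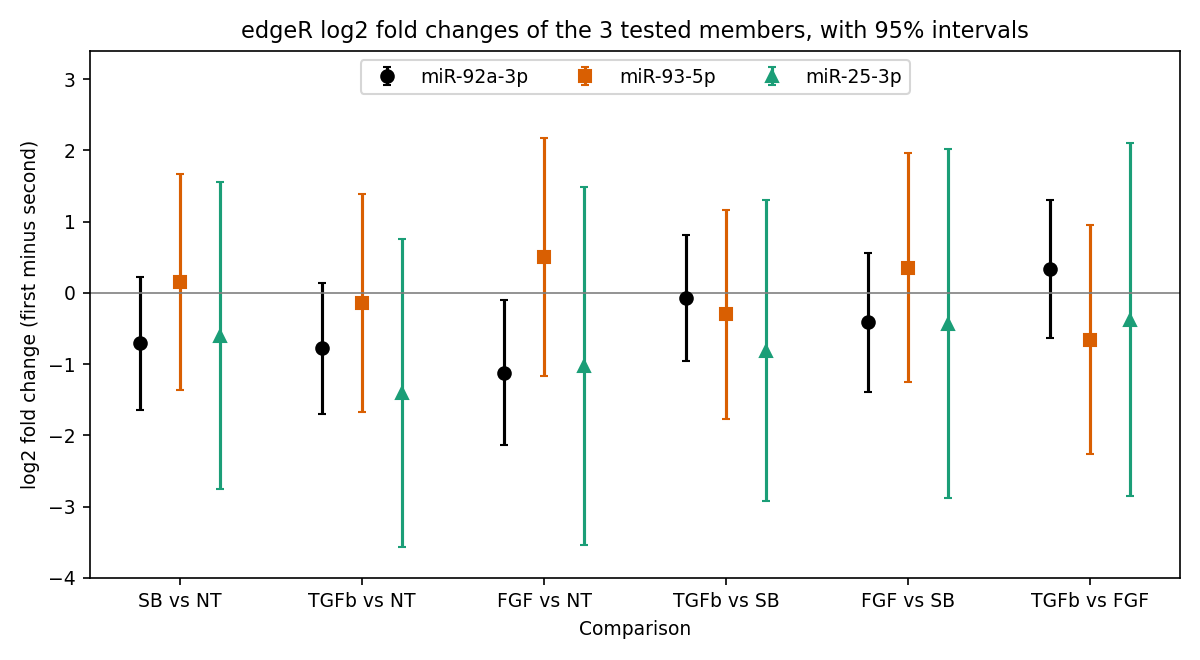
edgeR log2 fold changes of miR-92a-3p, miR-93-5p and miR-25-3p (y axis, first group minus second) in the 6 comparisons (x axis), with 95% intervals. The interval of miR-92a-3p in FGF against NT (−2.14 to −0.10) is the only one of the 18 that leaves out 0, and it does not pass after adjustment.

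miR-92b-3p, of the miR-92 seed but encoded apart from both clusters, had 31 counts in 9 libraries against 1774 of miR-92a-3p. NT replicate 1 held 10 (0.0673%), NT replicate 3 held 6 (0.0634%) and TGFb replicate 3 held 5 (0.0669%), and the other libraries held 0 to 4. Those 3 shares lay close together. The highest share of the 14, 1.12% in SB replicate 2, rests on 2 of 179 counts (interval 0.307% to 3.98%), and the next was 0.105% in SB replicate 3.

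The other arms of the member hairpins showed where the usual leading arm did not dominate. Of 12 other-arm miRNAs, 8 had at least 1 count. miR-92a-3p took 1774 of 1775 counts of its hairpins (99.9%), miR-93-5p 377 of 392 (96.2%), miR-25-3p 213 of 225 (94.7%) and miR-20a-5p 30 of 31 (96.8%). miR-92b was split, with 31 counts of the 3p arm and 36 of miR-92b-5p (46.3% for the 3p arm, interval 34.9% to 58.1%). The 3p arm was the higher in 5 libraries and the 5p arm in 4. Those 4 were NT replicates 1 (18 counts against 10), 3 (7 against 6) and 4 (3 against 0) and TGFb replicate 1 (2 against 1). By group, the 5p and 3p arms had 28 and 16 counts in NT, 2 and 7 in SB, 6 and 7 in TGFb and 0 and 1 in FGF. The 5p lead in the sum thus rests on NT, and mostly on its replicate 1, and it was not tested. miR-18a had 2 counts of the 5p and 9 of the 3p arm.

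For MIR106B, all 30 counts came from the 3p arm. They were 16 in NT replicate 1, 2 in NT replicate 3, 3 in SB replicate 3, 3 and 2 in TGFb replicates 3 and 4, and 4 in FGF replicate 3. The hairpin was thus represented in 6 libraries, the 6 deepest of the 14, while miR-106b-5p was not counted. The counted arm is in capitals in the hairpin:
MIR106B (chr7:100093993-100094074, minus strand): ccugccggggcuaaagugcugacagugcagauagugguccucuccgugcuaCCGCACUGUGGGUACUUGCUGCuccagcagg
miR-106b-5p differs from miR-20a-5p at 3 of its 21 positions (U10G, U12C and G20A) and from miR-17-5p at 3 (C1U, U10G and G20A). How reads shared by such relatives were assigned is not given in the sources used here.

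**Figure D5:**
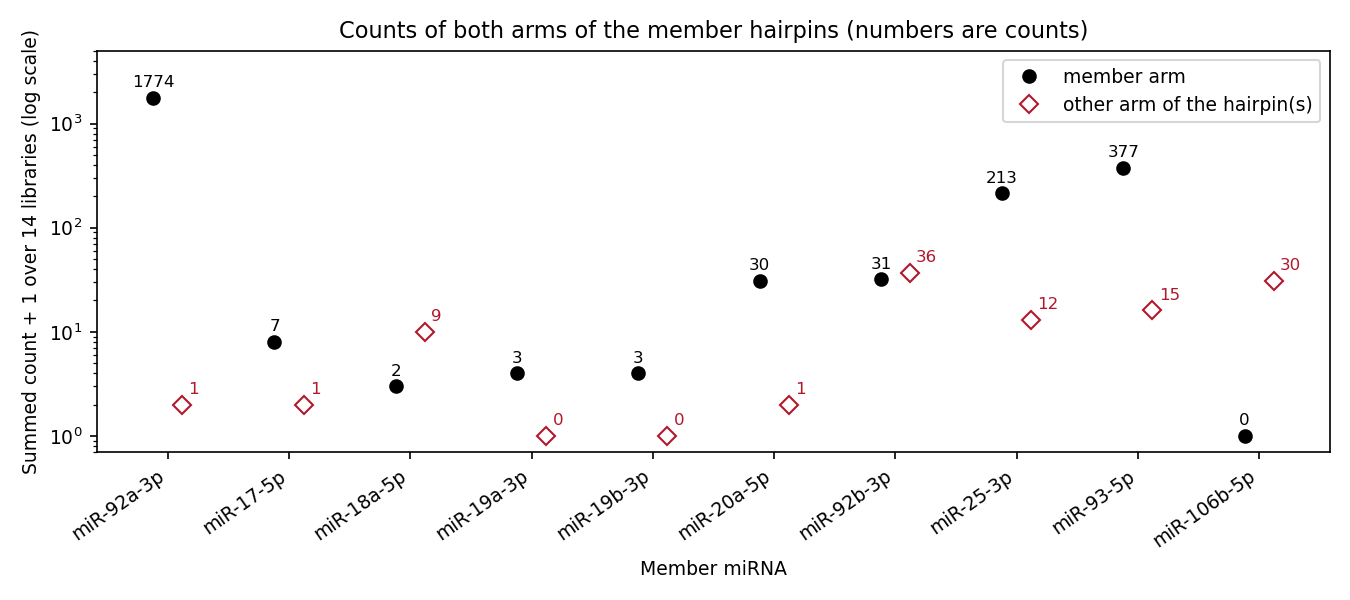
Summed counts of each member (black circles) and of the other arm of its hairpin (red diamonds) over the 14 libraries, on a log scale of count + 1 with the counts printed. By summed counts the member arm leads for 7 of the 10 and the other arm for miR-18a-5p and miR-106b-5p. For miR-92b the 5p arm leads in the sum, while the 3p arm is higher in 5 libraries and the 5p arm in 4.

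The paralogous X-chromosome cluster left few counts apart from the miRNAs it shares with miR-17-92. miR-106a-5p, miR-18b-5p and miR-20b-5p were at 0 in every library, and miR-363-3p had 6 counts in 3 libraries. miR-106a-5p differs from miR-17-5p only by C1A. Of the other miRNAs with the miR-92 seed, miR-32-5p had 1 count, and miR-367-3p, a miRNA of undifferentiated stem cells, had none. Of the 18 related miRNAs, 10 had a count and 0 passed the expression filter. The 5 with the highest mean shares were miR-92b-5p (0.0544%), miR-106b-3p (0.0316%), miR-363-3p (0.0223%), miR-18a-3p (0.0215%) and miR-25-5p (0.0171%). With no filter, where 447 miRNAs were tested, 0 of the related miRNAs and 0 of the members passed in any pairwise comparison by edgeR.

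Outside the family, the miRNAs that followed miR-92a-3p most closely over the 14 libraries were miR-320a-3p, miR-99b-5p and miR-423-5p. The measure was the SD of the difference in log2 CPM, the count relative to library size, with a prior count of 2, from miR-92a-3p. It was 0.63 for miR-320a-3p, 0.70 for miR-99b-5p and 0.75 for miR-423-5p, as a description with no test. Values of 1 library share its total, and counting error weighs on rarer miRNAs, which bears on this order.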

How the data were processed

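Small RNA of vesicles was made into libraries with the QIAseq miRNA kit, per the labels' protocols. In the raw table that the authors deposited, values are counts (whole numbers) of 2632 miRNAs in 14 libraries, with no normalization. The genome build was GRCh38 per the submitters' processing notes. The aligner, the miRNA annotation and the use of molecular identifiers are not given in the sources used here. A second table, deposited by the authors, holds adjusted values, treated as a score because how they were made is not stated. It differs from the raw table in 1084 of 2001 nonzero values, and 2 lines of it that name no miRNA were left out.

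Replicate pairs of each group all differed by a Monte Carlo chi-square test of their counts (p = 0.0005, the smallest that 2000 draws can give), so none were merged. Groups were compared with edgeR 4.0.16 in R 4.3.3 (glmQLFit, robust; TMM; filterByExpr by group, minimum count 10), with all 14 libraries in 1 fit and library totals summed over the 47 tested miRNAs. SE is the absolute log2 fold change over the square root of F. Depth ran from 115 to 14862 counts, so 1 count is a large step in the shallow libraries.

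Alternatives were RLE factors, library size only, DESeq2 1.42.0, no filter, the replicate block, the adjusted table (limma 3.58.1 on log2 values), libraries of at least 500 counts, only the 2 groups compared, and each library left out. Totals over all miRNAs were added after the data were seen. Named miRNAs are the 10 members, the 5 related miRNAs with the highest mean shares, the 3 tested miRNAs closest to miR-92a-3p and markers. The members, lists and tests were chosen with earlier results of these data known.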

Additional observations from a re-analysis of the deposited data

Results flagged for a closer look

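In the groups of 4 libraries (SB and TGFb), Dixon's criterion was applied to 17 sets of shares, to find single distant libraries. Of the 17, 2 held such a library, where the rate for normally distributed values is about 1 in 20, or 0.85. That rate does not apply to shares of few counts in libraries of unlike depth, so no excess is read from it. The share of miR-17-5p in SB replicate 1 was 0.290%, against 0 to 0.0261% in the other SB libraries, and it rests on 1 count of 345. The share of miR-92b-3p in SB replicate 2 was 1.12%, against 0 to 0.105% in the others, and it rests on 2 counts of 179.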

How the results depend on the processing

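No tested member passed in any of 160 results, each of 1 comparison under 1 alternative setting. The comparisons were the 6 pairwise ones and the test of 4 groups, and most fits gave several results. Fits without 1 library were counted for every comparison, including those that the library was not part of. Some settings also changed which miRNAs were tested, and the adjusted-table fit changed the test as well. Over all miRNAs tested, calls ran from 0 to 9 in SB, 0 to 1 in TGFb and 0 to 8 in FGF against NT. Against NT, miR-92a-3p was lower under each of the 9 alternatives, from −1.25 to −0.41 in SB, −1.35 to −0.63 in TGFb and −1.67 to −0.59 in FGF (log2) and in each of the 14 fits without 1 library. Those ran from −1.38 (without NT replicate 3) to −0.61 in SB, −1.25 (without NT replicate 3) to −0.49 (without NT replicate 1) in TGFb and −2.03 (without FGF replicate 3) to −0.96 in FGF. Its smallest adjusted p in FGF against NT was 0.0818, without NT replicate 4. Scaling by library size alone moved the median of all 47 miRNAs to 0.16 for SB and 0.41 for FGF against NT, and to −0.39 and −0.70 for TGFb against SB and FGF. With DESeq2 the 6 medians ran from −0.38 to 0.19. With no filter, miR-92a-3p against NT was −1.25 in SB and −1.67 in FGF. The medians of all 447 miRNAs there were −0.56 and −1.01, so much of those 2 values was shared by the typical miRNA. With full library totals, the SB value of −1.25 stood beside a median of −0.35.

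The following log2 values, none past the threshold in any setting, changed sign, and the cause was not tested. For miR-92a-3p, TGFb against FGF was −0.14 with library size only and −0.0062 in the adjusted table. TGFb against SB was 0.10 with no filter and 0.18 with full library totals. For miR-93-5p, SB against NT was −0.28 with no filter, −0.31 with full library totals and −1.09 in the adjusted table. FGF against NT was −0.026 with no filter and −0.21 in libraries of at least 500 counts, where FGF against SB was −0.49 and miR-25-3p in TGFb against FGF was 0.050. In the adjusted table TGFb against SB was 0.85 for miR-93-5p. With 1 library left out, values ran from −0.22 to 0.27 for miR-92a-3p in TGFb against SB. For miR-93-5p they ran from −0.38 to 0.26 in SB against NT, −0.040 to 0.52 in FGF against NT, −0.036 to 0.79 in FGF against SB and −0.51 to 0.14 in TGFb against SB.

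The replicate block changed no member's call, but over all 47 miRNAs it raised the calls from 0 to 3 for TGFb and from 0 to 1 for FGF against SB, from 0 to 2 for TGFb against FGF, from 1 to 2 for FGF against NT and from 0 to 4 over the 4 groups. With it, miR-92a-3p against NT was −0.67 in SB, −0.71 in TGFb and −0.99 in FGF. Libraries of the same number deviated together (mean correlation 0.298 over 18 pairs, over 0.1 in 15). Every replicate 2 library held under 500 counts, and the part of depth was not tested. With 3 pairs below 0.1 and no label tying a number to a culture or day, the block stayed an alternative. The share of miR-92a-3p within miR-17-92 moved by less than 1 SD under every alternative, from 89.4% to 99.2% over the group means. Depth limits the 7 members that were not tested.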
